A study of Homo sapiens with 29 samples.

Results

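Metallothioneins are small cysteine-rich proteins that hold zinc and copper ions in the cytosol. The transcription factor MTF1 senses free zinc, moves to the nucleus and binds metal response elements, short motifs repeated in front of the metallothionein genes and of SLC30A1, whose product exports zinc across the plasma membrane. Induced metallothionein RNA is therefore a common readout of zinc load in a cell. The genes described are MT2A, MT1E, MT1F, MT1G and MT1X, their activator MTF1, and the exporter SLC30A1, chosen by symbol as members of this pathway: 7 of the 38148 genes in the RNA table. Regions carrying the same symbols number 6 of 49916 in the chromatin table.

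All libraries come from HCT116, a human colorectal carcinoma line. RNA was sequenced in 4 groups of 4 libraries: non-targeting siRNA without crotonate, non-targeting siRNA with 10 mM crotonate, DAXX siRNA without crotonate, and DAXX siRNA with 10 mM crotonate. DAXX is a chaperone that deposits the histone variant H3.3, and crotonate is a short-chain acid that cells can use for lysine crotonylation (Kcr). The labels give 35 nM for the DAXX siRNA and 25 nM for the non-targeting siRNA, so dose and target change together and cannot be told apart. Exposure to crotonate is given as 18 h in the series text and as 48 h in the sample protocol. Chromatin was immunoprecipitated with an antibody against Kcr on any protein, with 4 libraries for each siRNA without crotonate, 2 for each siRNA with crotonate, and 1 input library made from cells with DAXX siRNA. Whether replicates are separate cultures is not given, so p-values measure only the spread between these libraries.

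RNA libraries held 35003617 to 55128007 reads in genes and anti-Kcr libraries 2226835 to 3639130 reads in regions. DAXX RNA lay at 101 to 105 and 95.2 to 102 reads per 1000000 reads (RPM) in the groups with non-targeting siRNA, and at 22.9 to 27.4 and 13.1 to 24.2 RPM in those with DAXX siRNA. Of 8 epithelial markers 7 were expressed, summing to 4003 to 5204 RPM across the 16 libraries, while the intestinal factor CDX1 had no read. Summed fibroblast markers lay at 11.2 to 27.0 RPM with DCN and LUM at 0 reads, leukocyte markers at 7.16 to 13.5 RPM, and endothelial markers at 0.279 to 1.71 RPM. With crotonate, CDH1 rose with either siRNA (log2 fold change 0.32 and 0.29, called with neither after median centring), EPCAM fell by 0.27 and COL1A1 rose by 0.66 with DAXX siRNA, and PECAM1, at most 0.495 RPM, rose by 2.14 with non-targeting siRNA (limma adjusted p 0.00866 to 0.0464). The call of PECAM1 was lost with median centring (adjusted p = 0.057), quantile normalization (0.109) and the replicate block (0.0603). That of CDH1 with DAXX siRNA was lost with quantile normalization (0.0506), and EPCAM was called lower with non-targeting siRNA too after median centring (-0.31, adjusted p = 0.0101). Their part in the results below was not tested. In bulk RNA, fewer expressing cells and less RNA per cell cannot be told apart.

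The motif core bound by MTF1 can be read in the promoters of the family. The RefSeq promoter table (GRCh38.p14) held 4 of the 7 genes, and the 250 bases before each start were searched on both strands for TGCACNC or TGCGCNC. The sequences of the metallothioneins with an entry, MT2A (chr16:56608334-56608583, plus strand) and MT1X (chr16:56682220-56682469, plus strand), are shown. Both starts lie inside Kcr regions and both genes are expressed in every library. The same holds for MTF1, whose sequence, without a core, is not shown. Capitals mark the cores, in either orientation, and no core overlaps another.
MT2A: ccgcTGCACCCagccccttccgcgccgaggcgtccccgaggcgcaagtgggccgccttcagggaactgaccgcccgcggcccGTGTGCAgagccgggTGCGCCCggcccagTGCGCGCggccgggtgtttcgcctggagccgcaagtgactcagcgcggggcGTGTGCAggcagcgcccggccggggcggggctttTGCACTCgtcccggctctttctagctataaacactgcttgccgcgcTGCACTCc
MT1X: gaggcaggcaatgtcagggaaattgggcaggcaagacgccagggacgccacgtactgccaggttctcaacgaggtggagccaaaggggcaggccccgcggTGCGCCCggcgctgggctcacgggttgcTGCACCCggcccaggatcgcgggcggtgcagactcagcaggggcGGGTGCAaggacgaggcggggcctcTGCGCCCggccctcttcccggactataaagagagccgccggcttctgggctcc
The MT2A window held 7 cores, 5 on the gene's strand, and 0.0313% of 35116 promoter windows held as many. For MT1X the number was 4 cores, with 3 on the gene's strand, reached by 0.370% of windows. SLC30A1 had 1 core, as 24.8% of windows had at least 1. None was found for MTF1. A match describes the letters only and does not show that MTF1 binds there.

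MT2A (ENSG00000125148, 16:56608584-56609497, plus strand), the metallothionein with the most reads, was expressed in all libraries. Values are RPM without division by gene length, so levels of different genes are not ranked per transcript. With non-targeting siRNA MT2A stood at 406, 470, 426 and 366 RPM, and with crotonate added at 480, 500, 535 and 463 RPM. Cells with DAXX siRNA had 433, 371, 417 and 414 RPM without crotonate and 337, 470, 416 and 467 RPM with it. The groups overlapped in each of the 4 comparisons tested. Crotonate moved MT2A by 0.25 on the log2 scale in cells with non-targeting siRNA (95% interval 0.05 to 0.45, limma adjusted p = 0.0938) and by 0.04 in cells with DAXX siRNA (-0.17 to 0.24, adjusted p = 0.853). DAXX siRNA moved it by -0.02 without crotonate (-0.23 to 0.18, adjusted p = 0.935) and by -0.24 with it (-0.44 to -0.03, adjusted p = 0.344).

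MT1E (ENSG00000169715, 16:56625475-56627112, plus strand) fell with crotonate in cells with DAXX siRNA. Those cells held 249, 195, 248 and 187 RPM of MT1E without crotonate and 126, 166, 164 and 167 RPM with it. Every library with crotonate lay below every library without. Limma gave a log2 fold change of -0.50 (SE 0.11, 95% interval -0.73 to -0.27, n = 4 per group, adjusted p = 0.00357). The library at 126 RPM stood apart from the other 3 of its group, and without it the change was -0.40 (adjusted p = 0.015). The same library also had the lowest DAXX level of all 16, 13.1 RPM.

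In cells with non-targeting siRNA, MT1E lay at 214, 260, 238 and 235 RPM without crotonate and at 212, 182, 229 and 204 RPM with it. These groups overlapped, and the difference of -0.20 did not pass the test (-0.43 to 0.03, adjusted p = 0.256). Between the siRNAs, MT1E differed by -0.12 without crotonate (-0.35 to 0.11, adjusted p = 0.699). With crotonate it differed by -0.42 (-0.65 to -0.19), and all 4 libraries with DAXX siRNA lay below all 4 with non-targeting siRNA, yet the adjusted p was 0.0793.

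MT1X (ENSG00000187193, 16:56682470-56684196, plus strand) rose with crotonate in cells with non-targeting siRNA, from 34.6, 40.8, 52.6 and 39.2 RPM to 56.5, 47.9, 57.5 and 61.9 RPM. The groups overlapped through 1 high library without crotonate (52.6 RPM). The log2 fold change was 0.43 (SE 0.12, 95% interval 0.18 to 0.68, adjusted p = 0.0175). Without the library at 34.6 RPM it was 0.35 (adjusted p = 0.0756), and without the one at 61.9 RPM 0.38 (adjusted p = 0.0676), so the call rests on single libraries.

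With DAXX siRNA, MT1X lay at 41.7, 35.1, 42.6 and 36.4 RPM without crotonate and at 36.0, 46.5, 39.7 and 46.7 RPM with it, overlapping groups that differed by 0.11 (-0.14 to 0.36, adjusted p = 0.598). Under crotonate, all 4 libraries with DAXX siRNA lay below all 4 with non-targeting siRNA (-0.41, -0.66 to -0.16), but the adjusted p was 0.126. Without crotonate the siRNAs differed by -0.09 (-0.34 to 0.16, adjusted p = 0.801). A second row of the table, AC026461.1, starts at the same base as MT1X on the same strand, carries the same identifier and lies at 15.4 to 28.0 RPM. Reads of the pair, and of the near-identical metallothionein copies in general, cannot be assigned with certainty, and how multiply mapped reads were treated is not given in the sources used here.

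MT1F (ENSG00000198417, 16:56657731-56660698, plus strand) was a minor transcript at 3.38 to 5.85 RPM over the 16 libraries, resting on 121 to 270 reads each. Its groups overlapped in all 4 comparisons. The largest difference was 0.28, with crotonate in cells with DAXX siRNA (-0.06 to 0.62, adjusted p = 0.283). MT1G (ENSG00000125144, 16:56666731-56668065, minus strand) had no read in 15 of 16 libraries and 2 reads in 1 library with non-targeting siRNA and crotonate. A count of 0 allows up to 0.0589 to 0.0857 RPM in those 15 libraries (3 reads, counting error only). MT1G was not detectable in them at this depth and was not tested.

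**Figure D1:**
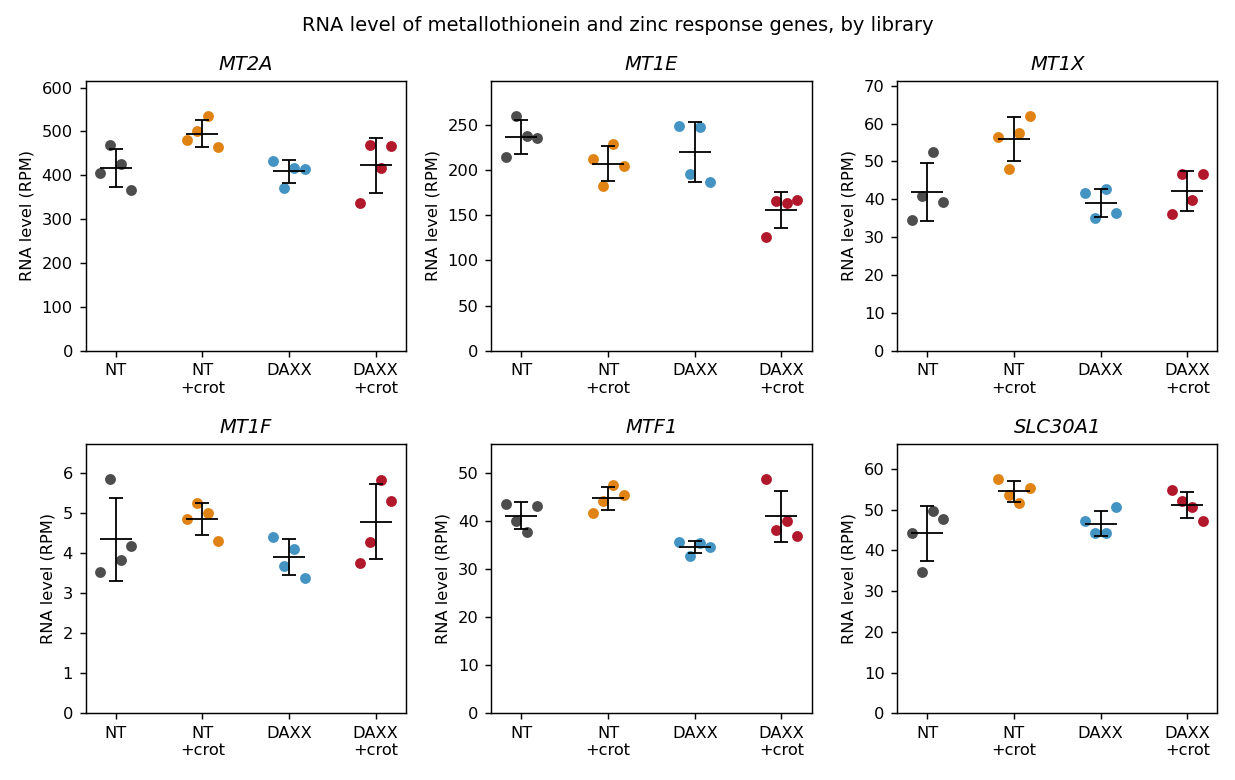
RNA level in RPM of the 6 expressed genes, 1 panel per gene, each axis starting at 0; NT is non-targeting siRNA, DAXX is DAXX siRNA and +crot is 10 mM crotonate. Points are libraries (n = 4), and bars are mean ± SD. MT1E is lowest in DAXX siRNA with crotonate (126 to 167 RPM), and MT1X has its highest mean in non-targeting siRNA with crotonate (47.9 to 61.9 RPM).

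The zinc exporter SLC30A1 (ENSG00000170385, 1:211571568-211579161, minus strand), itself a target of MTF1, rose with crotonate in cells with non-targeting siRNA. It stood at 44.3, 34.8, 49.8 and 47.8 RPM without crotonate and at 57.6, 53.5, 51.6 and 55.4 RPM with it, with no overlap. The log2 fold change was 0.32 (SE 0.10, 95% interval 0.12 to 0.51, adjusted p = 0.0289). Without the library at 34.8 RPM the change was 0.21 and not called (adjusted p = 0.0729). The call was also lost without the libraries at 44.3, 57.6, 53.5 or 55.4 RPM, with changes of 0.29 to 0.32 and adjusted p of 0.0547 to 0.0871.

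In cells with DAXX siRNA, SLC30A1 lay at 47.2, 44.3, 44.2 and 50.6 RPM without crotonate and at 54.8, 52.2, 50.6 and 47.3 RPM with it. These groups overlapped (0.14, -0.06 to 0.34, adjusted p = 0.378). DAXX siRNA moved SLC30A1 by 0.09 without crotonate (-0.11 to 0.29, adjusted p = 0.752) and by -0.09 with it (-0.29 to 0.11, adjusted p = 0.833).

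MTF1 (ENSG00000188786, 1:37809574-37859592, minus strand), the zinc sensor, was lower in every library with DAXX siRNA than in any with non-targeting siRNA when no crotonate was given, but the difference did not pass the test across all genes. The values were 43.6, 40.2, 37.8 and 43.3 RPM with non-targeting siRNA and 35.6, 32.9, 35.5 and 34.6 RPM with DAXX siRNA (log2 fold change -0.25, -0.43 to -0.07, adjusted p = 0.255). With crotonate the groups overlapped, at 41.8, 44.2, 47.6 and 45.6 RPM for non-targeting siRNA and 48.9, 38.2, 40.1 and 37.0 RPM for DAXX siRNA (-0.13, adjusted p = 0.634). Within cells with DAXX siRNA, MTF1 was higher in every library with crotonate than in any without (0.24, 0.06 to 0.42, adjusted p = 0.0725). The highest of these, 48.9 RPM, is the library that was lowest for MT1E.

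Counted together, 6 genes could be tested. In cells with non-targeting siRNA crotonate raised 2 of 6, MT1X and SLC30A1, where 15.4% of all 17973 tested genes were called, 13.1% higher and 2.34% lower. In cells with DAXX siRNA crotonate lowered 1 of 6, MT1E, where 15.4% were called, 13% higher and 2.41% lower. DAXX siRNA changed 0 of 6 without crotonate (0.406% of all genes called) and 0 of 6 with it (1.06%); at an unadjusted p under 0.05 the counts over all genes were 2189 and 1968, and limma-voom called 67 and 241 genes. Groups did not overlap for 1, 2, 1 and 2 of the 6 genes in the comparisons of DAXX siRNA without and with crotonate and of crotonate with non-targeting and DAXX siRNA, beside 6.15%, 8.48%, 20.1% and 18.7% of all genes.

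The median change of the 6 genes was -0.10 for DAXX siRNA without crotonate and -0.19 with it, against -0.01 for all tested genes in both. For crotonate it was 0.22 with non-targeting siRNA and 0.13 with DAXX siRNA, against 0.07 and 0.06 for all genes. Whether the response to DAXX siRNA depended on crotonate was tested as an interaction. No gene of the whole table was called (0%; 433 at an unadjusted p under 0.05, 0 by limma-voom). For MT1E the interaction was -0.30 (-0.62 to 0.02), for MT1X -0.32 (-0.67 to 0.03) and for MT2A -0.21 (-0.50 to 0.08), each with an adjusted p of 0.995. The crotonate effects of the 2 siRNA arms are thus not shown to differ for any of these genes.

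Changes with crotonate depend on the scale of the libraries. Setting the median of each library to the same value moved all log2 changes down by 0.13 in cells with non-targeting siRNA and by 0.12 in cells with DAXX siRNA, and higher genes went from 84.9% to 46.1% and from 84.4% to 50.4% of the calls. Quantile normalization gave 58.5% and 63.0%. On the median-centred scale MT1E in cells with DAXX siRNA was at -0.61 (adjusted p = 0.000961). In cells with non-targeting siRNA it was at -0.33 on that scale, just above the threshold (limma adjusted p = 0.0509). Quantile normalization put it there at -0.16 (limma adjusted p = 0.336). The small uncalled differences of MT1X (0.11 to -0.00383) and MT2A (0.04 to -0.08) in cells with DAXX siRNA, and of MTF1 (0.12 to -0.00779) in cells with non-targeting siRNA, changed sign. MT1X in cells with non-targeting siRNA was at 0.30 (adjusted p = 0.0834) and SLC30A1 at 0.19 (adjusted p = 0.187), and neither was called.

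**Figure D2:**
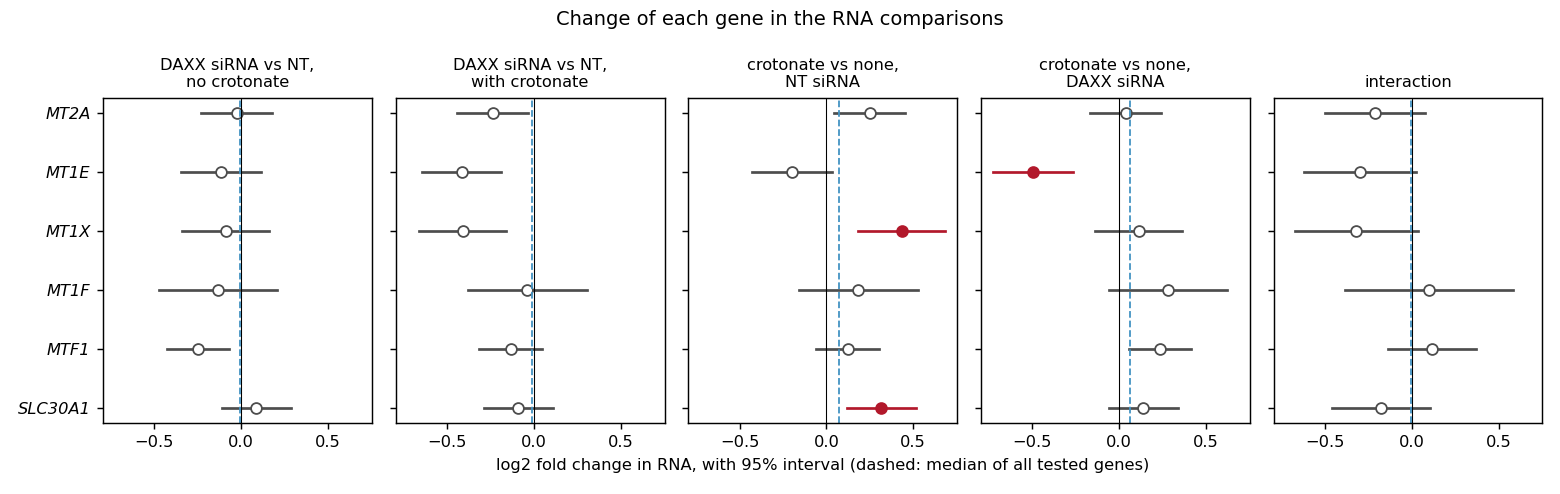
Log2 fold change in RNA of the 6 tested genes in the 4 comparisons and the interaction, with limma 95% intervals (n = 4 per group). Filled points passed an adjusted p under 0.05 and open points did not; the dashed line is the median of all tested genes. MT1X and SLC30A1 are called with crotonate in cells with non-targeting siRNA, and MT1E in cells with DAXX siRNA.

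The difference of log2 RPM between 2 transcripts of the same library does not depend on library scaling, and it separated the crotonate groups for MT1E. MT1E minus MT2A lay between -0.92 and -0.63 with non-targeting siRNA and between -1.15 and -0.75 with DAXX siRNA. With crotonate it lay between -1.46 and -1.18 and between -1.50 and -1.35. All 8 libraries with crotonate were thus below all 8 without, though the nearest stood at -1.18 and -1.15. How many other gene pairs separate in this way was not counted. Among single genes, 20.1% and 18.7% had crotonate groups that did not overlap, with non-targeting and DAXX siRNA. With non-targeting siRNA neither transcript was called alone (MT1E -0.20, MT2A 0.25). The group means were -0.81 ± 0.12 and -1.26 ± 0.13 with non-targeting siRNA (SD, n = 4), and -0.91 ± 0.18 and -1.44 ± 0.07 with DAXX siRNA.

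MT1E minus MT1X showed the same order: 2.18 to 2.67 and 2.36 to 2.58 without crotonate in the non-targeting and DAXX siRNA groups, and 1.72 to 1.99 and 1.80 to 2.04 with it. MT1X minus MT2A overlapped between crotonate and no crotonate for both siRNAs. These 3 differences, among the 3 metallothioneins with the most reads, are given as a description with no test. Relative to the other 2 transcripts, MT1E was lower under crotonate with either siRNA. MT1E alone passed the test with DAXX siRNA and not with non-targeting siRNA, and those effects were not shown to differ.

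**Figure D3:**
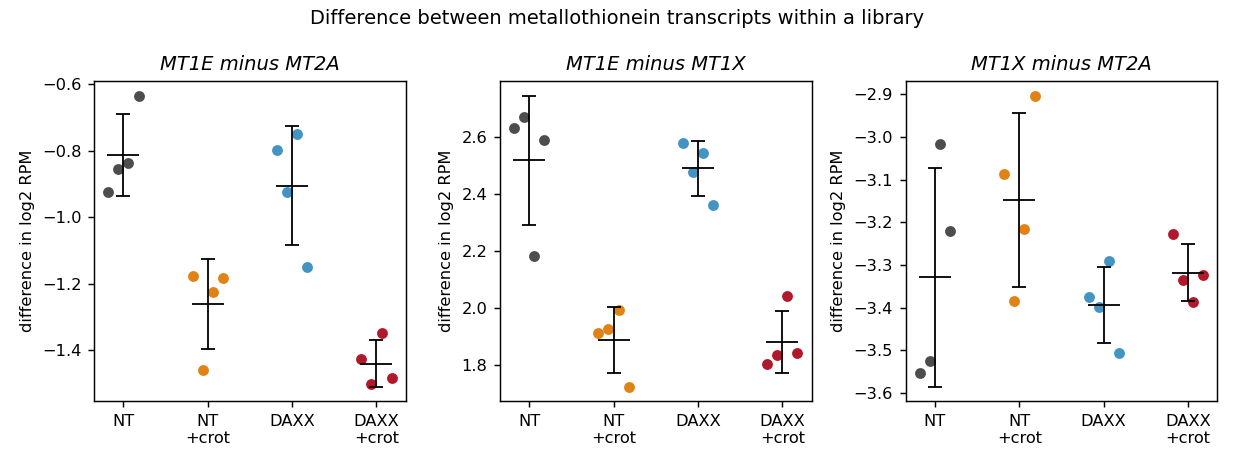
Difference in log2 RPM between pairs of metallothionein transcripts within each library; points are libraries, bars mean ± SD (n = 4), and the vertical axes do not start at 0. In the MT1E minus MT2A panel the crotonate libraries lie between -1.50 and -1.18 and the others between -1.15 and -0.63; the MT1X minus MT2A groups overlap.

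After each group's mean was removed, Pearson's r over the 16 libraries was 0.67 for MT1E with MT1X, 0.67 for MT1E with MT2A, 0.65 for MT1E with MT1F and 0.50 for MT1X with MT2A. For MT1F with MT1X it was 0.14. SLC30A1 and MT1F had r = -0.72, and MTF1 and MT2A -0.59. Library 1 of DAXX siRNA with crotonate, the library lowest for MT1E, sets most of the last value: over the 15 libraries without it, chosen after seeing the data, r was -0.11 for MTF1 with MT2A and -0.70 for SLC30A1 with MT1F. Among the metallothioneins it was then 0.60 for MT1E with MT1X, 0.47 for MT1E with MT2A, 0.52 for MT1E with MT1F, 0.34 for MT1X with MT2A and -0.06 for MT1F with MT1X. All values of a library share its depth and scaling factor, and metallothionein copies can share reads, so these are descriptions with no p.

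Among 8987 genes at or above the median level, the mean log2 value of the 4 expressed metallothioneins was tracked most closely over the 16 libraries by ATOX1 (r = 0.914), the chaperone that hands copper to the secretory pathway. CRIP1, a small LIM protein that binds zinc (r = 0.886), the complex I subunit NDUFA8 (0.870), the neuropeptide precursor NMU (0.859) and the phosphatidylcholine transfer protein PCTP (0.855) came next. ATOX1 averaged 55.2 ± 4.87, 65.6 ± 4.23, 49.0 ± 3.16 and 52.0 ± 7.98 RPM in non-targeting siRNA, the same with crotonate, DAXX siRNA, and the same with crotonate (SD, n = 4). Without library 1 of DAXX siRNA with crotonate r was 0.871 for ATOX1, 0.818 for CRIP1, 0.801 for NDUFA8, 0.777 for NMU and 0.795 for PCTP. ATOX1 passed the test in none of the comparisons, with adjusted p from 0.106 to 0.995. For MT2A alone the closest were CRIP1 (0.890), AL928654.3 (0.884), the tetraspanin CD63 (0.857), UCK1 (0.847) and UNC119 (0.847). Without the same library these were 0.853, 0.831, 0.796, 0.824 and 0.802.

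Other genes of metal handling were taken from lists. Their counts of raised genes are read against the 13.1% and 13% of all tested genes called higher with crotonate, with non-targeting and DAXX siRNA. Of 14 other metallothionein genes and pseudogenes, 7 were in the table and none reached the level needed for testing; MT1B was the highest at 0.0802 to 0.278 RPM. Of 9 further genes of the SLC30 family, which mostly moves zinc out of the cytosol, 6 were tested, and 1, SLC30A4, rose with crotonate with either siRNA. It went from 6.13 ± 0.852 to 10.1 ± 0.852 RPM with non-targeting siRNA (log2 fold change 0.72, adjusted p = 0.000318) and from 5.85 ± 0.738 to 9.04 ± 0.801 RPM with DAXX siRNA (0.63, adjusted p = 0.00114). Of 14 SLC39 genes, which bring zinc into the cytosol, 11 were tested and 1 rose with either siRNA: SLC39A8, an importer of zinc and manganese, by 0.52 (adjusted p = 0.000185) and 0.38 (adjusted p = 0.00305). No SLC30 or SLC39 gene fell, and none changed with DAXX siRNA.

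All 10 copper genes were tested. ATP7B, the copper-exporting ATPase mutated in Wilson disease, rose with crotonate from 11.7 ± 0.658 to 16.9 ± 1.36 RPM with non-targeting siRNA (0.53, adjusted p = 0.00046) and from 9.89 ± 0.860 to 16.5 ± 1.24 RPM with DAXX siRNA (0.74, adjusted p = 1.6e-05). SLC31A2 rose by 0.41 with DAXX siRNA (adjusted p = 0.00521) and stood at 0.25 with non-targeting siRNA (adjusted p = 0.0791). The changes of SLC30A4, SLC39A8 and ATP7B were also called after median centring and after quantile normalization, while that of SLC31A2 was lost under quantile normalization (0.22, adjusted p = 0.161).

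Of 13 genes of metal and proteotoxic stress, all tested, 1 changed with DAXX siRNA under crotonate, beside 1.06% of all tested genes. HMOX1, heme oxygenase, rose from 34.7 ± 2.64 to 49.9 ± 5.90 RPM (0.52, adjusted p = 0.00523). Without crotonate it was higher in all 4 libraries with DAXX siRNA, 51.8 ± 3.20 against 38.8 ± 3.55 RPM, with an adjusted p of 0.0524. Crotonate raised 2 of the 13, SRXN1 (0.29 and 0.34 with non-targeting and DAXX siRNA) and OSGIN1 (0.38 and 0.41), both linked to the oxidative stress response. Beside this count stand 13.1% and 13% of all tested genes called higher. After median centring SRXN1 and OSGIN1 were not called, and HMOX1 was called lower with crotonate and non-targeting siRNA (-0.29, limma adjusted p = 0.037). Under quantile normalization SRXN1 was called with non-targeting and DAXX siRNA (limma adjusted p = 0.00695 and 0.00313), and OSGIN1 with neither. No heat shock gene of the list passed in any comparison.

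The chromatin data cover the same genes. The metallothionein genes from MT2A to MT1X lie within 75.6 kb of chromosome 16 (GRCh38), with 9 genes in that stretch and 10 Kcr regions within 10 kb of it. MT2A lay inside a region of 10050 bases (16:56603251-56613300), longer than 95.3% of all regions, whose median was 1800 bases. Regions covered the starts of MT1E (16:56624551-56629950), MT1F (16:56657101-56659500), MT1X (16:56680801-56684100) and MTF1 (1:37857901-37861800), and a second MTF1 region lay inside the gene, 45792 bases from its start (1:37811701-37813800). No region carried the symbol MT1G or SLC30A1; the nearest lay 3.18 kb and 26.4 kb away.

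In cells with non-targeting siRNA and no crotonate, signal over the single input, as a log2 difference, was 1.22 at MT2A, 1.07 at MT1E, 0.93 at MT1X and 0.67 at MT1F. It was 0.95 at the MTF1 start and 0.56 inside MTF1. The median of all regions was 0.97, so MT2A stood at percentile 73.6 and MT1F at 18.7. On the deposited scale all 12 anti-Kcr libraries were above input at all 6 regions. Over all regions the library medians, 4.94 to 5.28 log2 scaled reads, were also above that of input, 4.25. The regions were themselves found by MACS, so this is a description and not a test. At MT1F, library 3 of non-targeting siRNA with crotonate had 5.09 against 5.08 for input, from 30 against 32 reads. The 6 regions rest on 23 to 295 reads per library.

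**Figure D4:**
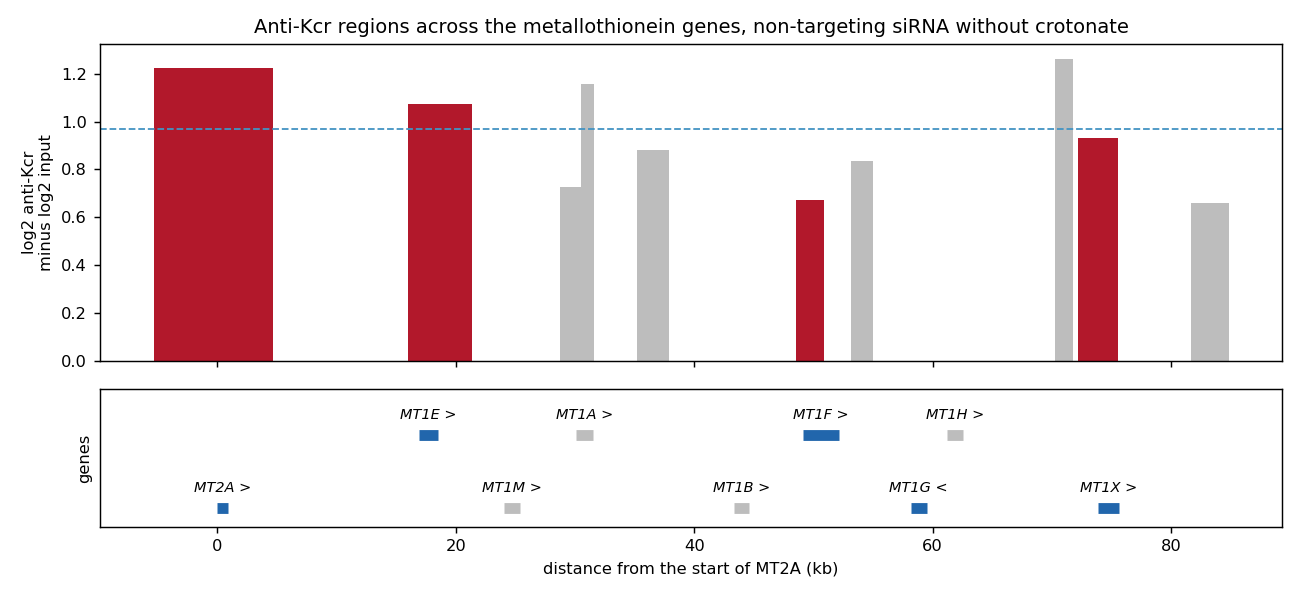
Kcr regions across the metallothionein genes of chromosome 16, drawn by distance from the start of MT2A in kb. The upper panel gives the log2 difference over input in cells with non-targeting siRNA without crotonate, with regions of the named genes in red, others in grey and the median of all regions (0.97) dashed; the lower panel shows the genes, the described ones in blue, with > and < for strand. The MT2A region is the widest (10050 bases), and the MT1F region reaches 0.67.

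Of the 6 regions 0 were called in any comparison, and limma called 0% of all 49916 regions in each; unadjusted p under 0.05 was found for 1186, 2082, 6616 and 4241 regions in the comparisons of DAXX siRNA without and with crotonate and of crotonate with non-targeting and DAXX siRNA, and limma-voom called at most 1 region. Libraries 1A and 1B of a siRNA were averaged as 1 sample, which leaves 3 samples per siRNA without crotonate and 2 with it. With DAXX siRNA and no crotonate the 6 regions differed by -0.08 to 0.26, and 0 of 6 had groups that did not overlap (7.16% of all regions). Under crotonate the siRNAs did not overlap at 1 of 6, MT1E (-0.25, -0.65 to 0.15), beside 29.1% of all regions.

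With crotonate 6 of 6 regions were lower on the deposited scale with either siRNA, though none was called. The changes ran from -0.45 to -0.17 with non-targeting siRNA and from -0.55 to -0.09 with DAXX siRNA. Groups did not overlap at 2 of 6 regions with non-targeting siRNA, MT2A and MT1E, and at 2 of 6 with DAXX siRNA, MT1E and the region inside MTF1, beside 30.1% and 24.5% of all regions. Anti-Kcr signal of all regions was also lower on the deposited scale, by a median of 0.19 with non-targeting siRNA and 0.16 with DAXX siRNA. After median centring the median change was -0.02 with either siRNA, and under limma-voom it was 0.04 and 0.02. Median centring sets the library medians equal, and limma-voom scales each sample to its reads in these regions. Both remove a change shared by all regions, so they cannot show whether the level over all regions fell. Samples with crotonate carry the numbers 2 and 3 only, while those without it also include number 1. At MT1E the 3 samples with DAXX siRNA had 6.98, 7.01 and 6.91 log2 scaled reads and the 2 with crotonate 6.66 and 6.36 (-0.46, -0.82 to -0.09, adjusted p = 0.531). Inside MTF1 the values were 5.22, 5.70 and 5.40 without crotonate and 4.81 and 4.97 with it (-0.55, -1.06 to -0.04, adjusted p = 0.556), and at MT1F, where groups overlapped, the change was -0.55 (-1.10 to -0.01, adjusted p = 0.582). At MT2A with non-targeting siRNA the values were 8.16, 8.02 and 7.89 without crotonate and 7.75 and 7.45 with it (-0.42, -0.78 to -0.06, adjusted p = 0.319). After median centring the differences at MT1E with DAXX siRNA and at MT2A with non-targeting siRNA were -0.32 and -0.25. The MTF1 start turned to 0.04 in cells with DAXX siRNA after centring and to 0.11 under limma-voom, and the region inside MTF1 to 0.06 in cells with non-targeting siRNA under limma-voom.

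MT1X, whose RNA rose with crotonate in cells with non-targeting siRNA, had 6.25, 6.58 and 5.84 log2 scaled reads at its start without crotonate and 5.64 and 5.94 with it (-0.43, -0.88 to 0.01, adjusted p = 0.391). The groups overlapped. Intervals were wide at these genes. Even differences without overlap were not called, such as -0.46 at MT1E with DAXX siRNA and -0.42 at MT2A with non-targeting siRNA. The lack of a call therefore does not show that Kcr was unchanged.

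**Figure D5:**
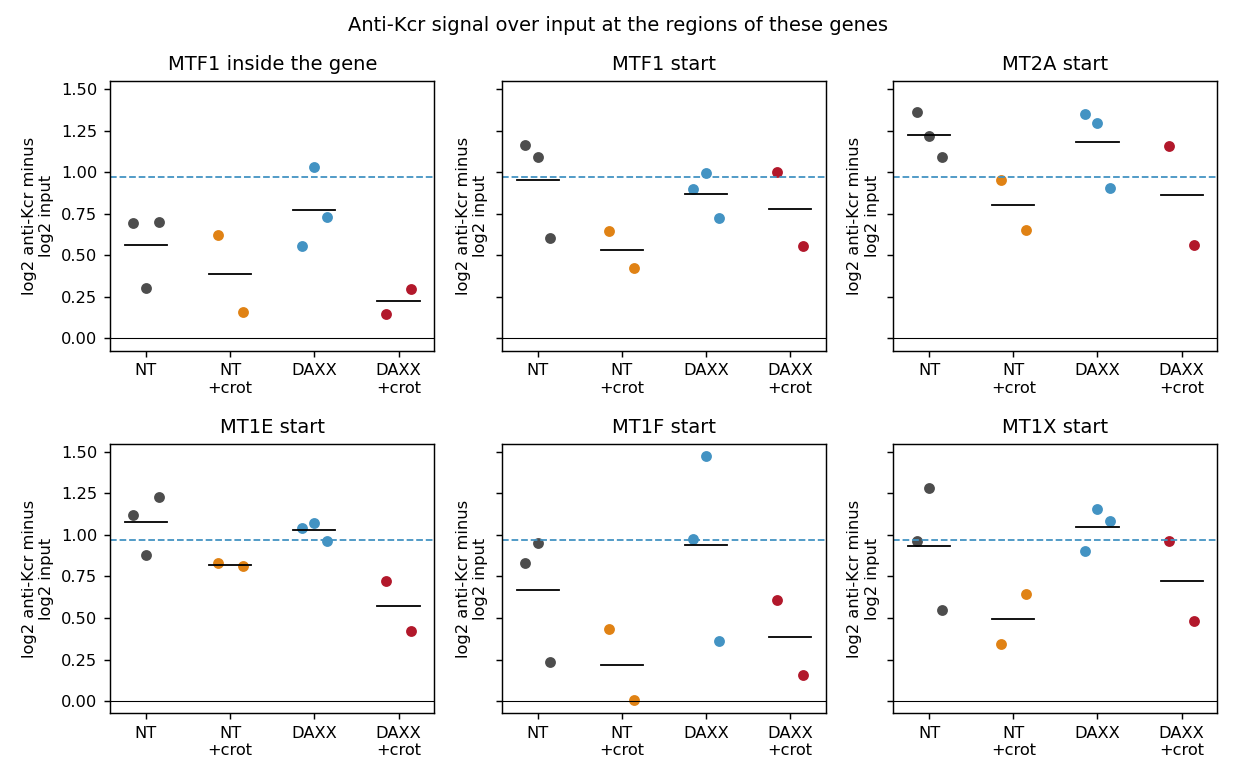
Anti-Kcr signal minus input (log2 scaled reads) at the 6 regions, by group; points are samples, with 1A and 1B averaged (n = 3, 2, 3 and 2), and bars are means. The dashed line is the median of all regions without crotonate (0.97). Every sample lies above 0, and MT1E in DAXX siRNA with crotonate lies below the samples without crotonate.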

How the data were processed

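RNA (16 libraries) and anti-Kcr chromatin immunoprecipitation (12 libraries and 1 input) were measured. Per the submitters' processing notes, reads were trimmed with Trim Galore (0.6.2 for RNA, 0.6.5 for ChIP; cutadapt 2.3), RNA was aligned with HISAT2 2.2.1 and ChIP with Bowtie2, and regions came from MACS, on GRCh38. No source used here gives the strand counted or the treatment of multiply mapped reads.

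Both tables deposited by the authors hold log2 values. RNA values are log2 RPM not divided by length, with 0 reads entered as 0.9 read. ChIP values are log2 reads times 1 factor per library, without input subtraction. Undoing the factors gave whole reads for 100% of values (tolerance 0.01 read, widened with the count), which limma-voom used as an alternative.

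Limma 3.58.1 (R 4.3.3, trended prior, 1 coefficient per group) was fitted to the 17973 genes with at least 0.25 RPM in at least 4 libraries and to all 49916 regions. Adjusted p is Benjamini-Hochberg over all features of a comparison, a call is an adjusted p under 0.05, and the method was tested on simulated data. ChIP libraries 1A and 1B differed by about read sampling (chi-square per degree of freedom 1.006 and 1.013, other pairs 1.036 to 1.379) and were averaged. Same-numbered RNA libraries had r 0.107 to 0.654 in the crotonate comparison with non-targeting siRNA and 0.188 to 0.738 with DAXX siRNA. Their own number was the best match for 3 of 8 and 7 of 8 libraries. In the siRNA comparisons the lowest r was -0.669. Differently numbered RNA libraries had r -0.703 to 0.808. ChIP samples had median r 0.047 for the same number (at most 0.095) and -0.024 for different numbers. Own number was their best match for 3 of 5 to 4 of 4 samples a comparison. A weak pairing of ChIP samples is thus possible, and the main fits did not include it.

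The genes and lists were chosen with earlier results of these data known. All 7 genes are named; list genes are named where they passed a test, at most 6 a list; the 5 genes of highest correlation are named. Alternatives were other filters, a pseudocount of 1, median centring, quantile normalization, limma-voom, only the groups compared, the replicate number as a block, 1A and 1B apart, and leaving out each library.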

Additional observations from a re-analysis of the deposited data

Results flagged for a closer look

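MT1E in library 1 of DAXX siRNA with crotonate stood at 126 RPM, apart from the other 3 libraries of its group at 164 to 167 RPM, by Dixon's gap test. Of 28 gene and group combinations examined this was the 1 found, and chance gives about 1 in 20. The 28 include the groups of MT1G, where 15 of 16 libraries hold only the entry for 0 reads, which follows depth. In the same library MT2A (337 RPM), MT1X (36.0 RPM) and MT1F (3.75 RPM) were the lowest of their group, and MTF1 (48.9 RPM) and SLC30A1 (54.8 RPM) the highest.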

How the results depend on the processing

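MT1E with crotonate in cells with DAXX siRNA was called in 16 of 16 alternatives (-0.61 to -0.40, adjusted p 0.000961 to 0.0193). MT1X with crotonate in cells with non-targeting siRNA was called in 13 of 16 (0.30 to 0.55), and SLC30A1 in 8 of 16 (0.19 to 0.38, adjusted p 0.0141 to 0.187). The count of genes raised there, 2, became 0 with median centring, 1 when only the 2 groups were fitted, and 0 to 2 when 1 library was left out. With crotonate and DAXX siRNA, the count raised, 0, was 0 to 1 when 1 library was left out: MTF1 passed without library 4 with crotonate (0.28, adjusted p = 0.0412). Quantile normalization called 1 gene lower with DAXX siRNA under crotonate, MT1E (adjusted p = 0.0446), and MT2A higher with crotonate in cells with non-targeting siRNA (0.30, adjusted p = 0.0362), as did leaving out library 2 without crotonate (0.31, adjusted p = 0.0337). The causes were not tested. Of 522 RNA values under alternatives 507 kept their side of the threshold, and all 324 ChIP values did; no called value changed sign, and the sign changes among uncalled values reached values between -0.08 and 0.07 for RNA and between -0.24 and 0.13 for ChIP, outside the interaction. The replicate block changed no call of these genes. With it, genes called for DAXX siRNA without crotonate went from 0.406% to 0.651%, and without a filter to 0.264%, with only those groups to 0.161%. Without a filter, over a larger set of genes, 8.93% and 8.79% were called with crotonate, with non-targeting and DAXX siRNA. Leaving out a library gave 0.217% to 0.456% and 0.529% to 1.00% for DAXX siRNA without and with crotonate. For regions, the most called with crotonate was 0.821% with non-targeting siRNA under the replicate block, and 0.791% with DAXX siRNA when 1 library was left out. MT1G is limited by depth.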
